A study of Mus musculus with 2 samples.

Results

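The genes Ribc1, Morn5, Spa17, Mlf1, Tuba3a, Tuba3b, Ccnb3 and Inca1, are tied by name or known role to cilia, sperm or the germ cell cycle, and were followed in germ cells of the mouse fetal ovary at E15.5. They were taken by symbol from 27998 gene rows, and all 8 were found in both libraries. They had been selected on their levels, which were higher in germ cells than in ovarian somatic cells of these same libraries, so that contrast is given below as a description. Transcripts had been measured in single cells to ask whether loss of the glucocorticoid receptor (GR, encoded by Nr3c1) alters fetal oocytes. The GR KO library was made from ovaries of 2 pooled embryos carrying a homozygous GR deletion, and the WT library from ovaries of 4 pooled wild-type embryos. The deletion came from a floxed Nr3c1 exon 3 recombined by a β-actin Cre, which acts in all tissues, so germ and somatic cells both lacked the exon. The mouse strain of both groups is listed as Tg(Pou5f1-EGFP)2Mnn Nr3c1tm1.1Jda, and all embryos were untreated females. The Pou5f1-GFP transgene marks germ cells, and sorted GFP-positive cells were mixed with somatic cells at 60 to 40. Each genotype gave 1 library, so no difference between KO and WT has a replicate check, and genotype cannot be told apart from pool of embryos, sort or capture. No test was run and no p-value is given. Intervals are 95% and cover counting error only.

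Fetal oocytes build no cilium of the motile kind and no flagellum, and they pass through meiotic prophase long before birth. Male germ cells also pass through meiosis, and then assemble a sperm tail around an axoneme, a ring of doublet microtubules moved by dynein arms. Many genes of the axoneme and of sperm are known to be transcribed from meiosis onwards in the testis. The 8 genes fall into 3 sets by what they encode. Ribc1 encodes a protein of the inner wall of doublet microtubules, Morn5 a small protein with MORN repeats, Spa17 a sperm protein that binds A-kinase anchoring proteins, and Mlf1 a partner of a fusion protein of myeloid leukaemia. Tuba3a and Tuba3b encode alpha-tubulin of the type found in testis. Ccnb3 encodes a B-type cyclin needed for anaphase of the first meiotic division in oocytes, and Inca1 an inhibitor of cyclin-dependent kinases.

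The genes lie on 6 chromosomes of the GRCm38 mouse genome (GENCODE M21), and all are protein coding. Ribc1 (ENSMUSG00000025257) lies on the minus strand of the X chromosome at chrX:152004582-152016295, and its start is 133 bases from that of Smc1a, which runs the other way. Ccnb3 (ENSMUSG00000051592) is also X-linked, at chrX:6979652-7041619. Morn5 (ENSMUSG00000026894, chr2:36049458-36079718) starts 52 bases from the opposite-strand gene Ndufa8. Inca1 (ENSMUSG00000057054, chr11:70688361-70700155) starts 393 bases from Kif1c. Spa17 (ENSMUSG00000001948, chr9:37603290-37613722) shares exon sequence with Siae on the opposite strand. Mlf1 (ENSMUSG00000048416) lies at chr3:67374097-67400003. Tuba3a (ENSMUSG00000067702, chr6:125278274-125286042) and Tuba3b (ENSMUSG00000067338, chr6:145615757-145621479) are 2 genes of 1 chromosome with near-identical transcripts: 96.5% of bases are identical over 1447 aligned bases. Over the last 500 bases of the Tuba3a transcript, where 3′ reads fall, 474 of 492 aligned bases are the same in Tuba3b. How many reads were split between these 2 genes, or dropped because they matched both, was not tested, so both levels are uncertain.

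The 250 bases before the start are shown for 5 of the 8 genes, the tubulin pair because their levels moved together, Ribc1 and Mlf1 because they are the genes that hold the half-site of RFX factors (GTTGCC), which act at cilium genes, and Inca1 because it alone holds the STRA8 motif (CNCCTCAG). Sequences are from RefSeq (GRCm38.p6), 5′ to 3′ on the strand of the gene. The starts are those of RefSeq and can differ from the GENCODE M21 starts given above. For Tuba3b the GENCODE gene starts at 145615757, within the printed stretch. Most of its printed bases, with the E2F core, thus lie inside the GENCODE gene. Capitals mark the RFX half-site, the STRA8 motif, the E2F core (TCCCGC) and the half-site of CRE (TGACG), on either strand.
Ribc1, chrX:152016296-152016545, minus: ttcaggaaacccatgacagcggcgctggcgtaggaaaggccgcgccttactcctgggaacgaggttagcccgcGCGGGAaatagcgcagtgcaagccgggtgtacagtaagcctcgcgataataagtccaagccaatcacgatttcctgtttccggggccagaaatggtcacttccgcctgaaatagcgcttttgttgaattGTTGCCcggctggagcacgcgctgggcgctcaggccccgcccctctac
Mlf1, chr3:67373847-67374096, plus: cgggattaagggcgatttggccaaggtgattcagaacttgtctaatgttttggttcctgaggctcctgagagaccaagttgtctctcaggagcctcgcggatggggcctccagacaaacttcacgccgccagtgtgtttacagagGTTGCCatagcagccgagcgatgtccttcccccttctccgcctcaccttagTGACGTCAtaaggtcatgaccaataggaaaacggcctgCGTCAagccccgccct
Inca1, chr11:70700156-70700405, minus: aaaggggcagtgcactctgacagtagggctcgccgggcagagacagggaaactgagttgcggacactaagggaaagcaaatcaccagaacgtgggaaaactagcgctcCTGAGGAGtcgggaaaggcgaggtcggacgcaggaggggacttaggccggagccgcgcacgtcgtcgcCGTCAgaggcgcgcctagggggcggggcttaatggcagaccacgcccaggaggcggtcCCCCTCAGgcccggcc
Tuba3a, chr6:125286082-125286331, minus: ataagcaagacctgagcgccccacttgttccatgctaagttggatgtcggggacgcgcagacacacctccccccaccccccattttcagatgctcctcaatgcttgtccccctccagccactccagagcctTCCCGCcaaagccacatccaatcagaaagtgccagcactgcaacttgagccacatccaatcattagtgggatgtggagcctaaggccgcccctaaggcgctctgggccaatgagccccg
Tuba3b, chr6:145615713-145615962, plus: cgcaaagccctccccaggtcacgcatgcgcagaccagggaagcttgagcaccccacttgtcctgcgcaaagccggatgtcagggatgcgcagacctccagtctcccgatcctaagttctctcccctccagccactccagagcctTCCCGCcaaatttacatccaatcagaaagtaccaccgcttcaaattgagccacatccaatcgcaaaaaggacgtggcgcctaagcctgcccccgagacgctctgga
Searched on both strands from 250 bases before to 50 after the start, the RFX half-site was in 2 of the 8 genes (Ribc1 and Mlf1) and in 12.7% of 27025 gene promoters of the same length. The STRA8 motif was in 1 of 8 and in 7.97% of all promoters, and Inca1 held it on both strands. E2F cores were in 4 of 8 (Ribc1, Mlf1, Tuba3a and Tuba3b) and in 20% of all promoters. CRE half-sites were in 3 of 8 (Morn5, Mlf1 and Inca1) and in 21% of all promoters, and in Mlf1 the sense and antisense matches overlapped in TGACGTCA. The E-box CACGTG was in none of the 8 windows and in 7.24% of all promoters. The stretches before the RefSeq starts of Tuba3a and Tuba3b shared 164 of 224 aligned bases (73.2%), including the E2F core of both. A match describes letters only.

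The KO library held 186117981 unique molecular identifiers (UMIs, each from 1 captured transcript) in 17829 barcodes and the WT library 168483330 in 11430. After the limits of the study, 15502 KO and 9045 WT cells were kept, of which 10188 KO (65.7%) and 6787 WT cells (75%) were germ-like. The median germ-like cell held 17099 UMIs in WT and 11314 in KO. Among all barcodes, 75 occurred in both libraries. Nr3c1 was at 71.9 UMIs per 1000000 (CPM) in WT and 11.6 CPM in KO germ-like cells. These 3′ counts do not see exon 3 itself.

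All 8 genes were higher in germ-like than in somatic-like cells of each library, which is how they were picked. Spa17 stood at 225 CPM (223 to 228) in WT and 238 CPM (235 to 241) in KO germ-like cells, against 35.0 and 47.1 CPM in the somatic-like cells (granulosa-, theca- and epithelia-like). Inca1 stood at 324 CPM in WT and 370 CPM in KO germ-like cells, against 44.3 and 71.3 CPM in these somatic classes. Mlf1 was at 194 CPM in WT and 285 CPM in KO germ-like cells, and at 34.6 and 60.3 CPM in the somatic classes. The germ-like level was higher for each gene, by 4.72-fold (Mlf1, KO) to 10.0-fold (Ccnb3, WT). Ribc1 was at 115 CPM in WT and 113 CPM in KO germ-like cells, Ccnb3 at 144 and 149 CPM, Tuba3a at 195 and 262 CPM, Morn5 at 45.7 and 41.0 CPM, and Tuba3b at 27.1 and 41.1 CPM. The germ-like level was at least 2-fold the somatic-like level for 8 of 8 genes in both libraries, against a background of 26.4% of 13818 genes tested in WT and 22.7% of 14048 in KO. Lower by 2-fold were 31.1% and 32.9% of all genes and none of the 8. Nothing is read from these counts, since the contrast chose the genes. Doublets moved these values. Scrublet called 235 WT (2.60%) and 1023 KO cells (6.6%) doublets, and without them the log2 ratio of germ-like over somatic-like cells was 3.19 (Mlf1) to 4.31 (Tuba3b) in WT and 3.54 (Mlf1) to 4.86 (Tuba3b) in KO. With them it was 2.49 (Mlf1) to 3.32 (Ccnb3) in WT and 2.24 (Mlf1) to 2.69 (Tuba3a) in KO. The Mlf1 UMIs of the somatic classes in KO numbered 2940 with and 923 without these cells.

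**Figure D1:**
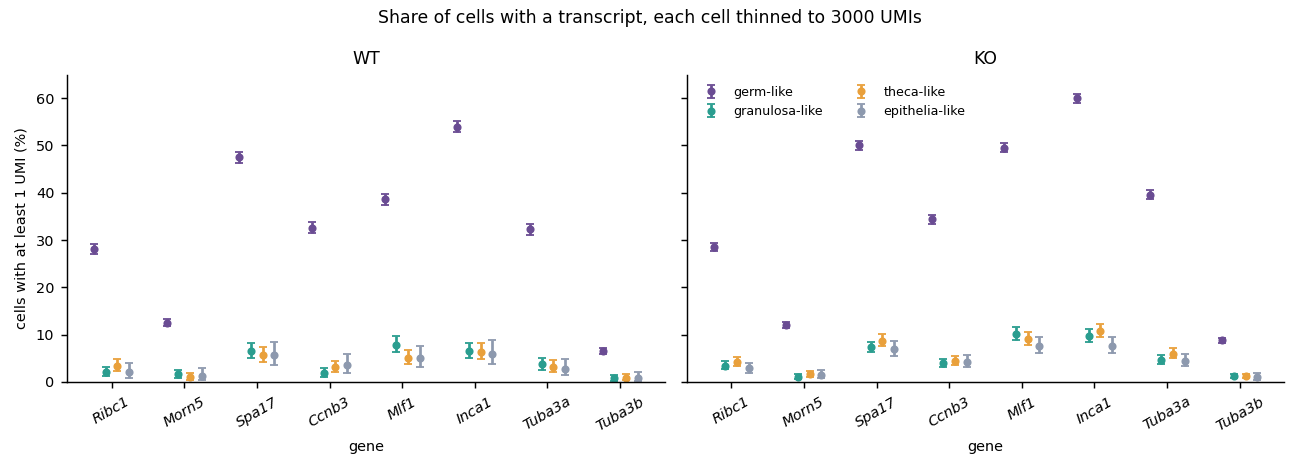
Share of cells with at least 1 UMI of each gene (y axis, percent) in WT (left) and KO (right), after every cell was thinned to 3000 UMIs. Points are germ-like cells and 3 somatic-like classes with exact 95% binomial intervals. Germ-like shares run from 6.48% (Tuba3b, WT) to 60.0% (Inca1, KO), and somatic shares do not exceed 10.8% (Inca1, KO theca-like).

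After thinning to 3000 UMIs per cell, Inca1, the kinase inhibitor, was detected in 54.0% of WT and 60.0% of KO germ-like cells (90.3% and 87.6% unthinned). Spa17 was detected in 47.5% and 50.1%, Mlf1 in 38.6% and 49.6%, Ccnb3 in 32.6% and 34.4%, Tuba3a in 32.3% and 39.6%, and Ribc1 in 28.1% and 28.5%. The lowest shares were those of Morn5 (12.5% and 12.0%) and Tuba3b (6.48% and 8.80%). Granulosa-like cells gave 0.745% (Tuba3b) to 7.87% (Mlf1) in WT and 1.12% (Morn5) to 10.2% (Mlf1) in KO, where Inca1 was at 9.73%. The median depth of granulosa-like cells before thinning was 12671 UMIs in WT and 8515 in KO. Across the 3 somatic classes the members stood at 9.99% (Ccnb3) to 17.8% (Mlf1) of their germ-like level in WT, where 10 germ cell markers such as Dazl, Ddx4 and Sycp3 stood at 9.88% to 14.1%. Mlf1 and Spa17 (15.52%) were above the range of the markers in WT. In KO the members stood at 15.49% (Tuba3a) to 21.2% (Mlf1) and the same markers at 14.4% to 19.6%. Mlf1 was farthest outside the markers in granulosa-like cells, at 20.9% of its germ-like level in WT against at most 13.8% for a marker. In endothelia-like cells Mlf1 was at 24.3 CPM (11.1 to 46.1) in WT (30 cells) and 109.9 CPM (93.1 to 129) in KO (136 cells). Inca1 was at 92.6 CPM in the same KO cells. In the 54 erythroid-like cells of KO, Mlf1 was at 161 CPM and Inca1 at 218 CPM. Whether somatic cells transcribe Mlf1 was not tested. Markers of multiciliated cells (9 genes including Foxj1, Mcidas and Ccno) summed to 18.2 CPM in WT and 15.49 CPM in KO germ-like cells.

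Germ-like cells were divided into 7 clusters with the 8 genes left out of the variable genes, and 4 clusters were named from stage markers. The premeiotic cluster (400 WT and 775 KO cells) was raised for 8 of 14 markers, among them Dppa3, Rhox9 and Sox2. It was also raised for 5 of the 10 meiotic entry markers, with Stra8 in 94.55% of its cells, so the name premeiotic does not mean that meiotic genes were absent. The cluster named meiotic entry (257 and 1030 cells) was raised for 4 of the 10. Stra8 and Rec8 were higher in the premeiotic cluster (log2 2.665 and 3.75 over other germ clusters) than in the meiotic entry cluster (2.48 and 0.78), which took its name because the premeiotic name was given first. The recombination-initiating cluster (1837 and 2610 cells) was raised for 8 of 13 markers, among them Prdm9, Meiob and Rad51ap2. The advanced prophase cluster (1971 and 2018 cells) was raised for only 3 of 15 markers, Sohlh1, Lhx8 and Psma8, so its name is the least secure. In the same list M1ap, Tex12, Hspa2 and Msh5 were lower in it than in other germ clusters, by log2 values from -1.74 (M1ap) to -0.945 (Msh5). Every value given for advanced prophase rests on this cluster. At a resolution of 1 a smaller cluster of 279 WT and 120 KO cells, raised for 8 of the 15 markers, took the name. Depth differed most in the advanced prophase cluster used here, with a median of 15996 UMIs in WT and 7706 in KO. Clusters 0 and 4 had no stage name, and the seventh, cluster 6, was led by somatic genes.

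Across these 4 stages the 8 genes followed 3 courses, alike in both libraries. Ribc1, Morn5, Spa17 and Ccnb3 were highest in advanced prophase. Mlf1 and Inca1 were highest in the recombination-initiating cells. Tuba3a and Tuba3b were highest at meiotic entry and lowest in advanced prophase.

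Among the late genes, Morn5 spanned the widest range. In WT it was at 4.57 CPM in premeiotic cells, 5.37 at meiotic entry, 16.2 in recombination-initiating and 85.7 in advanced prophase cells, and in KO at 7.23, 9.35, 19.3 and 104 CPM. The intervals of premeiotic and meiotic entry cells overlapped for Morn5 in both libraries, and the advanced prophase level stood clear of the other 3. The advanced over premeiotic log2 ratio was 4.23 (3.77 to 4.72) in WT and 3.85 (3.54 to 4.18) in KO. Ribc1, the doublet microtubule gene, went from 33.9 CPM through 27.0 and 92.5 to 147 CPM in WT, and from 40.0 through 43.3 and 100.5 to 173 CPM in KO. Its ratio was 2.12 in WT and 2.11 in KO. Ccnb3, the oocyte cyclin, was at 42.6, 46.2, 97.8 and 192 CPM in WT and at 59.4, 78.8, 132 and 243 CPM in KO, with ratios of 2.17 and 2.03. Spa17, the sperm protein gene, went from 90.7 through 142 and 196 to 273 CPM in WT and from 109.7 through 173 and 231 to 301 CPM in KO, with the smallest ratios of the 4 genes (1.59 and 1.45). At equal depth of 3000 UMIs, Spa17 was detected in 21.0% of WT premeiotic and 57.1% of WT advanced prophase cells, and Morn5 in 2.00% and 23.5%.

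The pair with a peak in the middle was Mlf1 and Inca1. Inca1 was at 144, 304, 536 and 156 CPM from premeiotic to advanced prophase in WT, and at 154, 357, 577 and 146 CPM in KO. The premeiotic and advanced ends of its course nearly met, with a log2 ratio of 0.11 in WT and -0.07 in KO, while the recombination-initiating level stood above both. The sign of the WT value turned under several alternatives, to -0.58 among cells of 8000 to 20000 UMIs. Mlf1 was at 141, 215, 294 and 107 CPM in WT and at 192, 321, 436 and 111 CPM in KO. Advanced prophase was the lowest of the 4 stages for Mlf1 in both libraries, with log2 ratios to premeiotic cells of -0.40 and -0.79. Thinned shares followed the levels, and Inca1 was detected in 77.1% of WT and 80.0% of KO recombination-initiating cells.

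The early pair was the testis-type tubulins. Tuba3a was at 516, 619, 233 and 99.6 CPM across the 4 stages in WT and at 539, 610.3, 271 and 55.5 CPM in KO. Tuba3b was at 72.6, 87.9, 31.5 and 13.3 CPM in WT and at 91.0, 104, 39.0 and 6.07 CPM in KO. Both genes were thus highest in the cluster named meiotic entry and lowest in advanced prophase. The advanced over premeiotic log2 ratio of Tuba3a was -2.37 (-2.44 to -2.31) in WT and -3.28 (-3.38 to -3.18) in KO, and that of Tuba3b was -2.45 and -3.91. Tuba3b made up 9.86% to 14.5% of the UMIs of the pair in every named stage of both libraries, a narrow range beside the change in level. Given the near-identical 3′ ends described above, this share may hold reads of either gene.

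**Figure D2:**
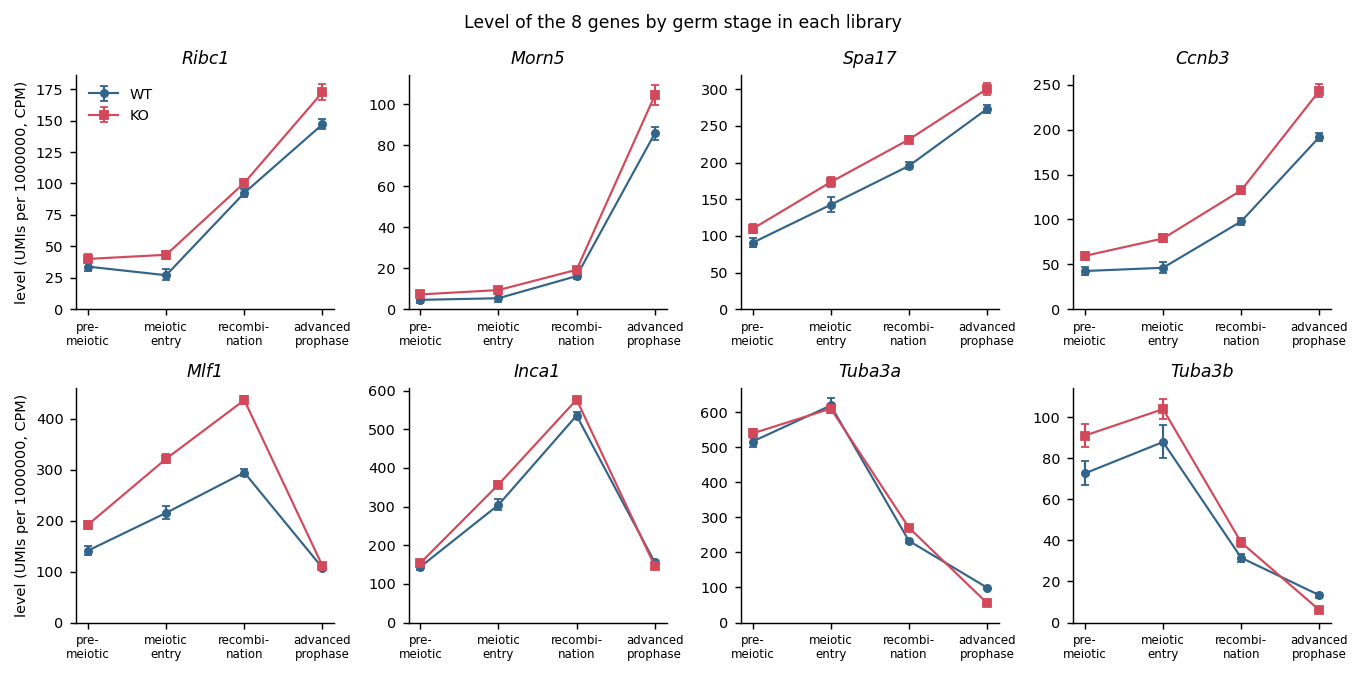
Level of each gene (y axis, UMIs per 1000000, linear from 0 and scaled per panel) in the 4 named germ stages (x axis) in the WT library (blue circles) and the KO library (red squares), with exact 95% Poisson intervals. Ribc1, Morn5, Spa17 and Ccnb3 are highest in advanced prophase, Mlf1 and Inca1 in recombination-initiating cells, and Tuba3a and Tuba3b at meiotic entry.

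By the 2-fold rule, 4 of the 8 genes were higher (Ribc1, Morn5, Spa17 and Ccnb3) and 2 lower (Tuba3a and Tuba3b) in advanced prophase than in premeiotic cells of both libraries. The background was 16% higher and 10% lower of 10769 genes in WT, and 15% higher and 12% lower of 9951 in KO. The median log2 ratio was 0.85 over the 8 genes and 0.14 over all genes in WT, and 0.69 and 0.12 in KO. Step by step, Inca1 was the single gene 2-fold higher at meiotic entry than in premeiotic cells, of 7 tested in WT (background 0.495%) and 8 in KO (1%), and none was 2-fold lower (8.3% and 10.4%). From meiotic entry to the recombination-initiating cells, Ribc1, Morn5 and Ccnb3 were 2-fold higher in WT (background 9.2%), and Ribc1 and Morn5 in KO (5.45%). The tubulin pair was 2-fold lower at this step in both (backgrounds 5.15% and 4.28%). In the last step Morn5 was 2-fold higher (18.9% and 16.7%), and Mlf1, Inca1, Tuba3a and Tuba3b were 2-fold lower (4.67% and 6.44%). Within cells of 8000 to 20000 UMIs the count of genes 2-fold apart between the ends was again 6 in both libraries. Morn5 had 39 premeiotic and 30 meiotic entry UMIs in WT, and 86 premeiotic UMIs in KO. Where it was tested against these, it reached the minimum number of UMIs only with those of the stage where it was higher. The same can hold for genes of the backgrounds. The counts and backgrounds by stage thus describe only the genes that passed.

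Other genes with the most similar course were sought by Pearson's r of log2(CPM + 1) over 14 points, the 7 germ clusters in each library, among 13790 genes. The points share libraries and cells, so the values are a description. Tuba3a and Tuba3b were among each other's closest genes (r = 0.994), though with near-identical 3′ ends reads of either may be counted for the other. Emd, an inner nuclear membrane gene, was close to both (0.994 and 0.987). Cdkn2a was next for Tuba3a and Hmgn2 for Tuba3b. Ccnb3 was closest to Dnaic1, a dynein arm gene (0.985), then to Rnf170 and Crbn. Spa17 was closest to Rnf32 (0.993) and Rnf212, a meiotic crossover gene (0.977), then to Tmem248. For Inca1 the list was Camta1, Pigp and Zcwpw1, the last a reader of histone marks at recombination sites (0.978). For Morn5 it was 1810044D09Rik, Fgf9 and Tbc1d7, for Ribc1 Sdcbp2, 2900009J06Rik and Taco1os, and for Mlf1 Hdgfrp2, 1700019B21Rik and Fmr1nb. Among the 8 genes themselves, Ribc1 and Morn5 ran together (r = 0.957) and against Tuba3a (-0.928 and -0.945), while Mlf1 ran with Inca1 (0.866).

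Transcripts of the 8 genes were next counted together in single cells thinned to 3000 UMIs. WT germ-like cells held a median of 2 of the 8 transcripts and KO cells a median of 3, and each of the 3 somatic classes a median of 0. At least 3 of the 8 were found in 49.5% of WT and 59.6% of KO germ-like cells, and in 2.02% of WT and 4.25% of KO granulosa-like cells. By stage, the share with at least 3 was highest in the recombination-initiating cells (58.3% WT and 70.8% KO) and lowest in premeiotic cells (31.3% and 41.0%).

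For each of the 28 pairs the cells holding both transcripts were set against the product of the 2 shares, where 1 means that neither gene tells of the other. Tuba3a and Tuba3b were together in 285 of 6787 WT cells where the product gives 142, a ratio of 2.01, and the KO ratio was 1.69. Their 3′ ends are near-identical, so reads of either gene may be counted for the other. The part of such reads in this ratio was not tested. Of WT cells with Tuba3a, 13.0% (11.6 to 14.5) also held Tuba3b, against 3.37% (2.87 to 3.94) of cells without it. Late and early genes were found together less often than the product gives. Morn5 with Tuba3b gave 0.33 in WT and 0.45 in KO, and Morn5 with Tuba3a gave 0.48 and 0.53. Late genes were found together more often, as Morn5 with Ccnb3 (1.34 and 1.26) and Ribc1 with Morn5 (1.19 and 1.22). The middle pair Mlf1 and Inca1 gave 1.2 and 1.13, and Mlf1 with Tuba3a 1.24 and 1.19.

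**Figure D3:**
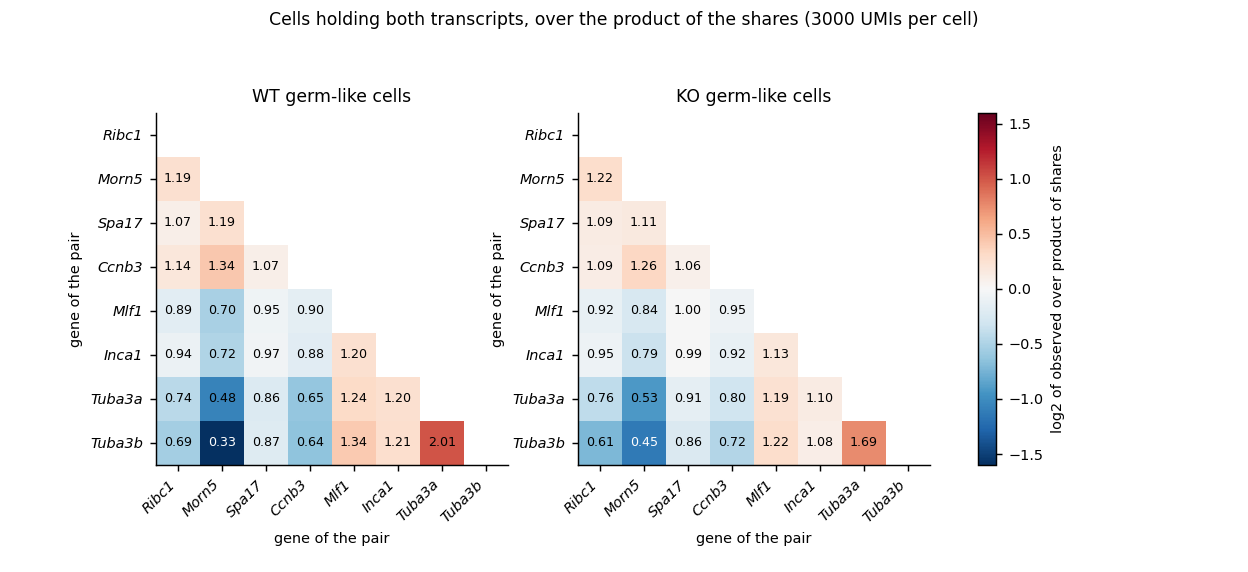
Germ-like cells holding both transcripts of a pair, divided by the product of the 2 shares, in WT (left) and KO (right), with each cell thinned to 3000 UMIs. Numbers give the ratio and colour its log2 (red above 1, blue below 1). Tuba3a with Tuba3b is highest (2.01 and 1.69) and Morn5 with Tuba3b lowest (0.33 and 0.45). Tuba3a and Tuba3b have near-identical 3′ ends, so reads of either may be counted for the other.

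Within a stage most of these thinned ratios were near 1. The premeiotic and meiotic entry clusters held 400 and 257 WT cells, so their intervals were wide. At meiotic entry, in neither library did any of the 28 pairs have an interval of the share with the partner clear of the share without it, and in premeiotic cells 1 pair did in each library. Among recombination-initiating cells, 4 pairs were found together more often and 3 less often in WT, and 3 and 4 in KO. In advanced prophase, 5 pairs were together more often and 4 less often in WT, against 1 and 2 in KO. The tubulin pair kept a high ratio there, 4.18 in WT (28 cells with both) and 1.86 in KO (12 cells), with the same limit on its reads. Median ratios over the 28 pairs were 0.95 in WT and 0.97 in KO over all germ-like cells, and between 0.97 and 1.05 within the 4 stages. Without thinning, pairs together more often numbered 7 in WT and 12 in KO in premeiotic cells, and 0 and 5 at meiotic entry. They numbered 7 and 11 in recombination-initiating cells and 17 and 13 in advanced prophase. Pairs together less often were then 2 and 1 in recombination-initiating cells, 2 and 0 in advanced prophase and 0 in the earlier stages. Depth varied among unthinned cells, and other pairs of genes were not counted.

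KO and WT germ-like cells were then compared gene by gene. Mlf1 showed the one difference past the size limit used here, 0.25 in ln(CP10k + 1), where CP10k is the level per 10000 UMIs. The study took 0.25 as its limit on log fold change between cells, together with a limit on the adjusted p-value. Here the limit was applied to summed UMIs with no p-value, and Mlf1 was within it by the mean over cells (below). Mlf1 was at 194 CPM in WT and 285 CPM in KO, a log2 ratio of 0.55 (0.53 to 0.57). Of the 8 genes, 1 was past the limit, against 0.174% (24) of 13790 genes tested. Many low genes, which can hardly pass this limit, are among those tested. Tuba3b (0.60, 0.54 to 0.67) and Tuba3a (0.43, 0.40 to 0.45) were higher in KO on the log2 scale but within the limit. Inca1 (0.19), Spa17 (0.08) and Ccnb3 (0.05) were higher by less, Morn5 lower (-0.16, -0.21 to -0.10), and for Ribc1 the interval held 0 (-0.03, -0.06 to 0.01). Intervals lay above 0 for 6 genes and below 0 for 1, against backgrounds of 20.4% and 36.6% of all genes. These backgrounds were not matched for level, and intervals narrow as UMIs rise. The median log2 ratio was 0.14 over the 8 and -0.05 over all genes. None of the 8 differed 2-fold (background 1.17%).

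The makeup of the germ-like cells moved with these ratios. Meiotic entry cells, where the tubulins were highest of the named stages, made up 3.79% of WT and 10.1% of KO germ-like cells. Advanced prophase cells, where the late genes were highest of the named stages, made up 29.0% and 19.8%. When each cluster was given the same weight in both libraries, an alternative chosen after seeing the data, the log2 ratio was -0.0021 for Tuba3a, 0.15 for Tuba3b and 0.39 for Mlf1, while those of Ccnb3 (0.33), Morn5 (0.28) and Ribc1 (0.18) were larger than before. No gene was then past the limit. Mlf1 was also within it without germ-like cells that held 2 or more UMIs of somatic markers (log2 ratio 0.44) and with the mean over cells in place of summed UMIs (0.52). Leaving out cells with somatic markers kept only 2125 of 6787 WT and 3504 of 10188 KO germ-like cells.

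Within stages, Mlf1 had a log2 ratio of KO over WT of 0.44 (0.34 to 0.55) in premeiotic, 0.58 (0.49 to 0.67) in meiotic entry, 0.57 (0.53 to 0.61) in recombination-initiating and 0.05 (-0.03 to 0.13) in advanced prophase cells. It was past the size limit at meiotic entry (1 of 8 genes, against 0.355% of all) and in the recombination-initiating cells (1 of 8, against 0.22%). None of the 8 was past it in premeiotic (0.236%) or advanced prophase cells (0.209%). Morn5 in premeiotic cells (4.57 CPM in WT) and Tuba3b in advanced prophase were too low to fall past this limit even if lost. The backgrounds also hold genes too low for it. Among cells of 8000 to 20000 UMIs the Mlf1 ratio was 0.66 in the recombination-initiating cells, 0.28 at meiotic entry and 0.31 in advanced prophase.

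Ccnb3 was higher in KO in each of the 4 stages, by 0.48 (0.30 to 0.67), 0.77 (0.58 to 0.97), 0.44 (0.37 to 0.50) and 0.34 (0.29 to 0.40) in order of stage. Ribc1 was higher by 0.24, 0.68, 0.12 and 0.23, and Morn5 by 0.66, 0.80, 0.25 and 0.28, with wide intervals for Morn5 in the first stages, where it had 39 and 30 UMIs in WT. Spa17 was higher by 0.27, 0.28, 0.24 and 0.14. All 4 late genes thus had intervals above 0 in every stage, while their ratios over all germ-like cells lay between -0.16 and 0.08. Over all 8 genes, intervals lay above 0 for 7 in premeiotic cells (background 13.3%), 7 at meiotic entry (15.4%), 8 in the recombination-initiating cells (17.9%) and 4 in advanced prophase (16.9%). They lay below 0 for none in the first 3 (backgrounds 11.7%, 15.1% and 21.9%) and for 3 in advanced prophase (23.1%). The backgrounds take all genes with at least 100 UMIs and were not matched for level. Intervals narrow as UMIs rise, so a high gene clears 0 at a smaller ratio. Since the 8 genes were chosen on their levels, a shift particular to them cannot be read from these counts. In the unnamed clusters the counts were 5 above and 2 below 0 in cluster 0 (25.6% and 10%), and 5 above and 0 below in cluster 4 (17.1% and 12.5%). Alternatives put some of these values on the other side of 0. In advanced prophase Spa17 was at -0.02 among cells of 8000 to 20000 UMIs. In premeiotic cells Ccnb3 was at -0.17 at a resolution of 1 and Morn5 at -0.08 without regression.

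The tubulin pair and Inca1 differed in sign between stages. Tuba3a was near level in premeiotic (0.06) and meiotic entry cells (-0.02), higher in KO by 0.22 in the recombination-initiating cells, and lower in advanced prophase, with 99.6 CPM in WT and 55.5 CPM in KO (-0.84, -0.95 to -0.74). Tuba3b was at 0.33, 0.24 and 0.31 in the first 3 stages and at -1.13 (-1.45 to -0.82) in advanced prophase, where 463 UMIs in WT stood against 105 in KO. Depth moved with this result. The 95th percentile of UMIs per advanced prophase cell was 35658 in WT and 16016 in KO, and at 3000 UMIs per cell Tuba3a was detected in 14.6% and 14.4% of cells. Among cells of 8000 to 20000 UMIs the advanced prophase ratios were 0.31 for Tuba3a and 0.26 for Tuba3b, the opposite sign. In the smaller advanced prophase cluster at a resolution of 1 they were 0.69 and -0.19. Inca1 was at 0.10, 0.23, 0.11 and -0.09 across the stages, and at 0.19 in advanced prophase within that depth range.

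**Figure D4:**
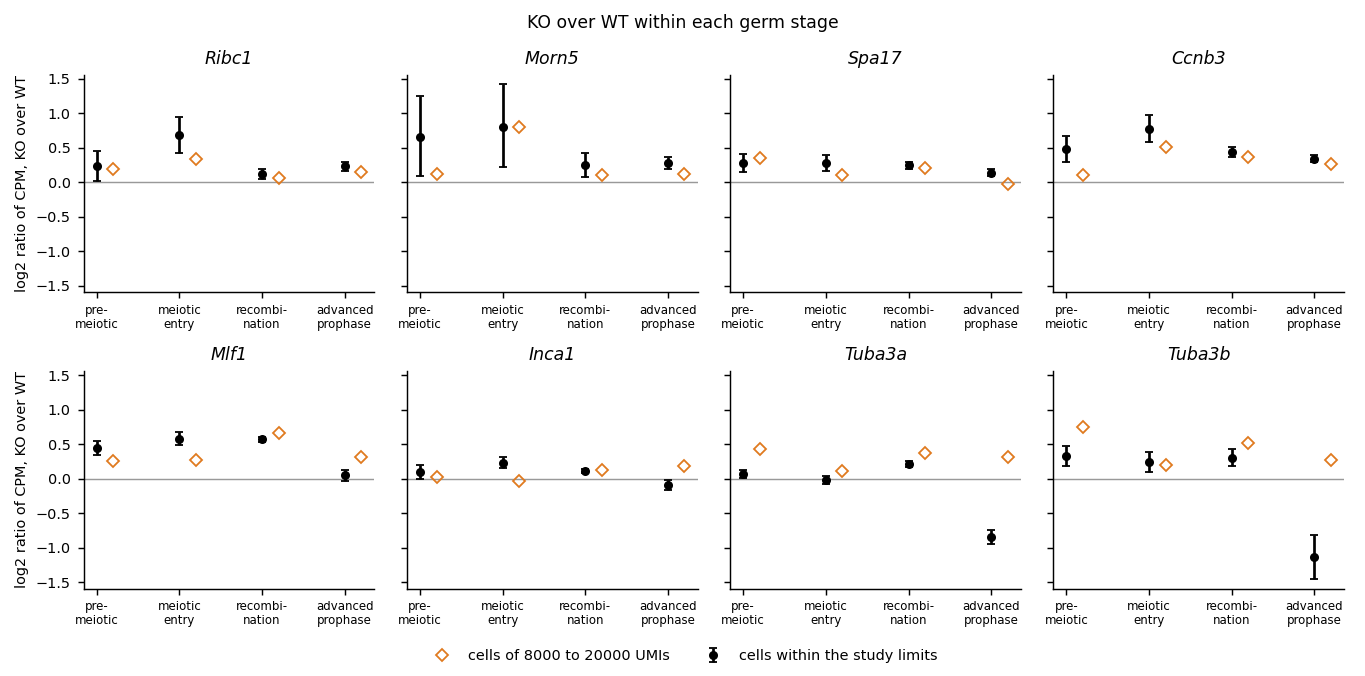
Log2 ratio of CPM, KO over WT (y axis), within each germ stage (x axis). Black circles with exact 95% counting intervals are all kept cells, and open orange diamonds are cells of 8000 to 20000 UMIs. The late genes lie above 0 in all stages among all kept cells, Mlf1 lies near 0.5 in the first 3 stages, and the low advanced prophase values of Tuba3a (-0.84) and Tuba3b (-1.13) are above 0 in the depth range.

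Germ cell transcripts in somatic-like cells also differed between the libraries. In theca-like cells the median KO over WT log2 ratio was 0.86 over the 8 genes and 0.01 over all genes. The middle 95% of all genes ran from -0.46 to 0.66. Mlf1, at 28.8 CPM in WT and 70.0 CPM in KO, was the single gene past the size limit there (background 0.364%). Theca-like levels of the 10 germ cell markers stood at a median of 15.6% of their germ-like level in WT and 23.2% in KO. The part of free germ cell RNA in the KO over WT ratios of germ-like cells was not tested.

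Other genes of the axoneme and of sperm were read from 10 lists by structure. In none of these lists was a gene past the size limit between KO and WT, where 0.174% of 13790 genes were. Median WT germ-like levels of the lists ran from 0.21 CPM (sheath and acrosome) to 36.9 CPM (intraflagellar transport). A gene at a few CPM would not pass 0.25 in ln(CP10k + 1) even if lost. The absence of calls therefore says little about the low genes. Counts against somatic-like cells rest on genes that reached the minimum number of UMIs for testing. Germ-like cells held 120442991 UMIs in WT and 121499928 in KO, against 29940891 and 48751445 in the 3 somatic-like classes. A low gene thus passed more easily when it was higher in germ-like cells. These counts, here and below, can lean that way and describe only the genes that passed. Of all genes, 26.4% were 2-fold higher in germ-like than in somatic-like cells of WT and 22.7% in KO. The dynein arm genes, the motors of the axoneme, gave 12 of 15 higher and 1 lower in WT and 9 of 14 and 1 in KO. Dnah8, a heavy chain, was one of those higher, at 25.4 CPM in WT and 32.4 in KO. Dnal4, a light chain, was at 33.5 and 36.4 CPM in germ-like cells and at 30.1 and 32.9 in somatic-like cells. Radial spoke, central pair and nexin-dynein genes gave 8 of 16 higher and 4 lower in WT and 8 of 18 and 4 in KO, with Gas8 at 35.2 and 32.7 CPM. Microtubule inner and doublet proteins, to which Ribc1 belongs, gave 6 of 14 higher and 3 lower in WT and 6 of 16 and 3 in KO, with Cfap20 at 117 and 119 CPM. Sheath, AKAP-binding and acrosome genes of haploid male cells gave 5 of 6 higher in both, with Odf2, an outer dense fibre gene, at 34.0 and 33.9 CPM.

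Intraflagellar transport genes, which serve all cilia, gave 6 of 15 higher and 2 lower in both libraries, with Ift74 at 237 CPM in WT and 257 in KO. Dynein assembly genes gave 5 of 8 higher in WT and 4 of 8 in KO, with 1 lower in both. Ciliary transcription genes gave 4 of 6 higher in both, with Rfx3 at 19.2 CPM in both. Cyclins A and B and their partners gave 2 of 6 higher in WT, and 1 of 6 higher and 1 lower in KO, with Ccnb2 at 82.6 and 66.2 CPM. MORN, RIB43A and MLF relatives gave 2 of 5 higher and 2 lower in both, with Morn2 at 272 and 279 CPM. Other alpha tubulins gave 3 of 4 lower in both libraries, unlike Tuba3a and Tuba3b, and 1 of 4 higher in KO. Tuba1b stood at 26.8 and 26.3 CPM.

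Between the stages, 16% of all genes in WT and 15% in KO were 2-fold higher in advanced prophase than in premeiotic cells. Genes with few premeiotic UMIs passed the minimum of 100 UMIs through advanced prophase alone and had to differ, so the counts of the lists describe the genes that passed and support nothing. They were 7 of 10 in WT and 5 of 8 in KO for dynein arms, 7 of 9 and 6 of 6 for radial spokes and their neighbours, 9 of 11 and 9 of 11 for doublet proteins, and 4 of 6 and 5 of 6 for the sheath and acrosome list. Dynein assembly gave 3 of 7 in both, ciliary transcription 2 of 4 in both, intraflagellar transport 4 of 14 and 3 of 14, relatives of Morn5, Ribc1 and Mlf1 2 of 3 in both, and cyclins none of 5 in both. Other alpha tubulins gave none higher, with 2 of 4 lower in WT and 3 of 4 in KO.

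**Figure D5:**
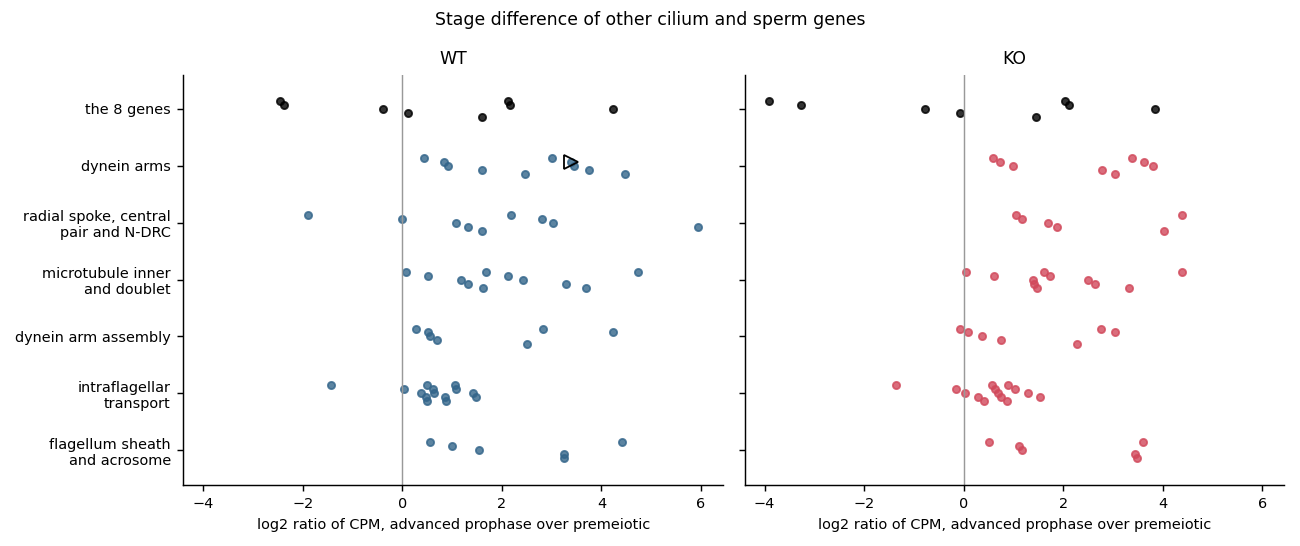
Log2 ratio of CPM, advanced prophase over premeiotic cells (x axis), for each gene with at least 100 UMIs over both stages in 6 lists and for the 8 genes, in the WT and the KO library. The open triangle is Dnah7a in WT, with 0 premeiotic UMIs, drawn at the bound given by 3 counts (3.40), and the 8 genes reach from -3.91 (Tuba3b, KO) to 4.23 (Morn5, WT).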

How the data were processed

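The deposited matrices hold UMI counts per gene and cell barcode, which the authors made from 10x 3′ v3 reads with Cell Ranger 3.0.2 (file header). The submitters' processing notes also name Seurat 3.2.3 and mm10. The 8 genes and all gene lists were chosen with earlier results of these data known. Cells were kept by the study's limits, which differed between libraries (5500 to 40000 UMIs in WT and 3000 to 30000 in KO). Counts were scaled to 10000 per cell and log transformed, and clustered in scanpy 1.11.5 on 2000 variable genes and 30 components with 20 neighbours (Leiden, resolution 0.5, seed 1). Germ-like cells were clustered again without the 8 genes. Stage names were given in order, from premeiotic to advanced prophase, each to the remaining cluster with the highest mean log2 level of its markers, and a name was kept only where at least 3 markers were 1.5-fold higher and seen in 10% of its cells. Levels are summed UMIs per 1000000 with exact Poisson intervals, ratios carry exact conditional binomial intervals, and shares carry Clopper-Pearson intervals. Genes with at least 100 UMIs in the 2 groups compared were tested against the size limit or 2-fold rule, with no p-value. The script for ratios was tested on simulated data. Named genes were the 8, the 3 genes most similar to each, and up to 4 genes of each list, those with the highest WT germ-like level. Doublets (Scrublet) were kept and left out in an alternative. Transcripts were aligned with blastn 2.17.0, and 8 of 8 genes matched the RefSeq promoter table. Other alternatives changed depth, limits, scaling, filters and clustering.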

Additional observations from a re-analysis of the deposited data

Results flagged for a closer look

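For 3 genes the KO over WT log2 ratio lay on opposite sides of 0 in different germ stages, with counting intervals clear of 0. The difference between stages was not tested, and the share of all genes that turn in this way was not counted. In advanced prophase 23.1% of all genes had intervals below 0, a background not matched for level. Tuba3a was at 0.063 in premeiotic and 0.22 in recombination-initiating cells and at -0.84 in advanced prophase. Tuba3b was at 0.33 in premeiotic cells, 0.24 at meiotic entry and 0.31 in recombination-initiating cells, and at -1.13 in advanced prophase. Inca1 was at 0.23 at meiotic entry and 0.11 in recombination-initiating cells, and at -0.091 in advanced prophase. Among cells of 8000 to 20000 UMIs, a range chosen after seeing the data, the advanced prophase values were 0.31 for Tuba3a, 0.26 for Tuba3b and 0.19 for Inca1. With the same limits on cells in both libraries they were 0.01, -0.28 and 0.13.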

How the results depend on the processing

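The count of the 8 genes past the size limit between KO and WT germ-like cells was 1, and 0 in 4 alternatives: without germ-like cells holding somatic markers, by the mean over cells, by the 2-fold rule, and with equal cluster weights (chosen after seeing the data). The Mlf1 ratio lay between 0.39 and 0.56 in all alternatives run for it. The count of genes 2-fold apart between advanced and premeiotic cells was 6 in both libraries in every alternative except clustering without regression, which gave 7 in WT and 8 in KO. The advanced prophase cluster there held 60 WT and 10 KO cells, and Tuba3b had 0 UMIs in those KO cells. That clustering had no meiotic entry cluster with 3 markers, so it gives no value for that stage. A minimum of 20 or of 1 UMIs left 24 genes past the limit, of 16729 and 21804. Depth differed between the libraries in every stage. No paired analysis was possible because each genotype had 1 library.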
